A study of Homo sapiens with 6 samples.

Results

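The genes described here are 42 genes of purine, pyrimidine and one-carbon metabolism, taken by symbol from a table of 60504 genes, and all 42 were found. They cover ribose phosphate supply (6 genes), de novo synthesis of IMP (6), the AMP and GMP branches (5), purine salvage (2), pyrimidine synthesis (5), deoxynucleotide supply (7), the cytosolic (3) and mitochondrial (6) folate enzymes, and serine synthesis (2). RNA-seq was done on WM164, a human melanoma cell line with the BRAF V600E mutation, and the question was which genes differ once HDAC8, a class I histone deacetylase, is introduced. The EV group (3 libraries) carried the empty expression vector and the HDAC8 group (3 libraries) the HDAC8 expression vector, and no drug or other treatment is named for either. The plasmids were delivered by lipid transfection and the cells kept under hygromycin selection, and whether each line was a pool or a clone is not given in the sources used here. The libraries of a group are numbered as biological replicates, but nothing says that they came from separate cultures, so p-values measure only the spread between these libraries.

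Growing cells build purines on ribose phosphate, which comes from the pentose phosphate pathway, and close the ring as IMP, from which AMP and GMP branch. Pyrimidines are made as a free ring and joined to ribose phosphate at the step of UMPS, and ribonucleotide reductase turns ribonucleotides into the deoxynucleotides that DNA synthesis uses. Serine feeds one-carbon units into folate, through parallel enzymes in mitochondria and cytosol, and these units enter the purine ring and thymidylate.

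The libraries held 34741083 to 42041462 counts each. The transcript of HDAC8 itself had 383.8, 404.4 and 478.8 normalized counts under EV and 484.8, 445.5 and 473.7 under HDAC8 (log2 fold change 0.15, SE 0.28, DESeq2 adjusted p = 0.856), so it does not check the labels, and directions are given as the groups are labelled. Counts varied with the GC content of the transcript, most of all in HDAC8 1. It ran from -0.47 on the log2 scale in the lowest of 20 GC bins to 0.49 in the highest. EV 2 went the same way but less (-0.10 to 0.15). EV 1 (0.27 to -0.14), EV 3 (0.22 to -0.25) and HDAC8 2 (0.22 to -0.11) went the other way. Among the members with at least 50% GC, 14 of 16 were higher in HDAC8 1 than in the other HDAC8 libraries, against 3 of 16 among those under 45%. Each of the 9 melanocyte markers had counts in at least 1 library, though TYRP1 was at 0 in HDAC8 1 and HDAC8 2. By the call thresholds given below, 5 of them were lower in HDAC8 (55.6%), beside 5.44% of all genes. Of 12 markers of other cell types, 4 were at 0 in every library, among them EPCAM, CDH5 and DCN, and the list summed to 2350 to 2816 normalized counts in EV and 1395 to 2390 in HDAC8, most of it LUM. CD3E, a T cell gene, was at 0 in EV and at 78.7, 91.1 and 50.1 in HDAC8, whereas PTPRC, carried by all leukocytes, did not exceed 2.6. The part of these differences in the results was not tested. In bulk RNA, fewer cells of a type and less RNA per cell cannot be told apart.

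Of the 42 genes, PFAS, ADSSL1 and UMPS rose and TKT, MTHFD2 and PSPH fell in the HDAC8 libraries. PFAS acts in de novo purine synthesis, ADSSL1 on the branch to AMP and UMPS in pyrimidine synthesis, whereas TKT acts in the pentose phosphate pathway, MTHFD2 in the mitochondrial folate arm and PSPH in serine synthesis. Calls required a DESeq2 adjusted p under 0.05 together with a log2 fold change of 0.58 or more in either direction. The 3 higher genes made up 7.14% of the members, beside 5.57% of all genes with an adjusted p. The 3 lower genes likewise made up 7.14%, beside 5.44%. Together the 6 calls came to 14.3% of the members, beside 11.0% of all genes and 14.0% of all genes with a mean of at least 50 normalized counts, the share nearest to that of the members. The median log2 fold change was 0.04 over the members and 0.00 over all genes tested. SHMT2 passed the p threshold but not the fold threshold, and 35 of the 36 genes not called had a log2 fold change under 0.58 in size.

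The groups did not overlap in 11 members (26.2%), 5 higher and 6 lower, beside 24.0% of all genes tested and 35.0% of those with a mean of at least 50 normalized counts, so members separated no more often than expressed genes. Without HDAC8 1, all 6 calls remained and RRM2B and SHMT2 were added, which made 8 members (19.0%) beside 12.1% of all genes. Scaling within bins of GC content, chosen after the data had been seen, called the same 8 members beside 12.2% of all genes. TKT and PSPH were both lost when EV 2 or HDAC8 2 was left out, which left MTHFD2 as the 1 gene called lower. PSPH was also lost without EV 1 or HDAC8 3, and UMPS without EV 3.

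**Figure D1:**
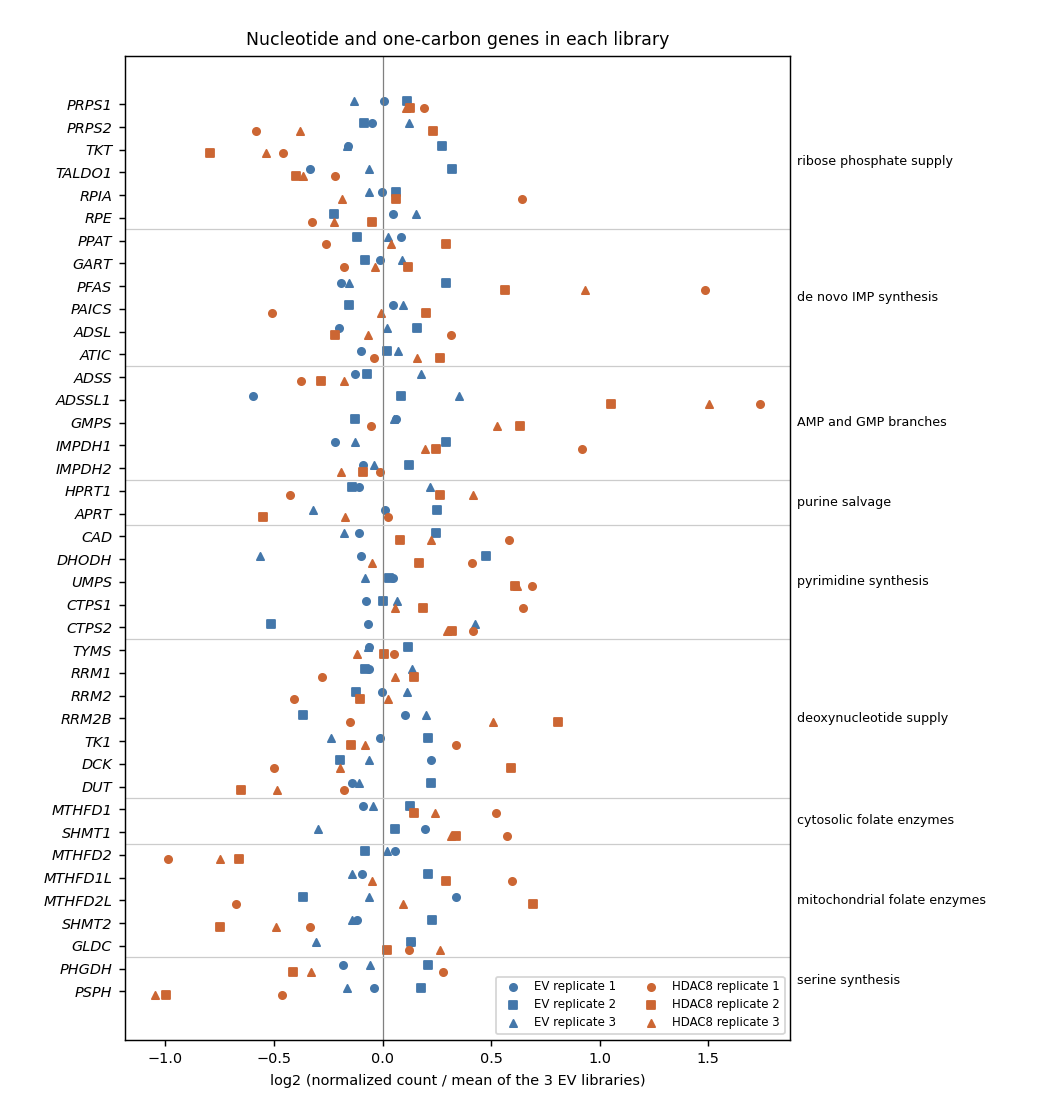
Log2 ratio of each library's normalized count to the mean of the 3 EV libraries (x axis) for 40 genes grouped by role (y axis), with EV in blue, HDAC8 in orange and circles, squares and triangles for replicates 1, 2 and 3. ALDH1L1 and ALDH1L2, with means under 50 normalized counts, are not drawn. The HDAC8 points of PFAS and ADSSL1 reach furthest to the right and those of MTHFD2 and PSPH furthest to the left, and HDAC8 replicate 1 often lies apart from the other HDAC8 points.

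**Figure D2:**
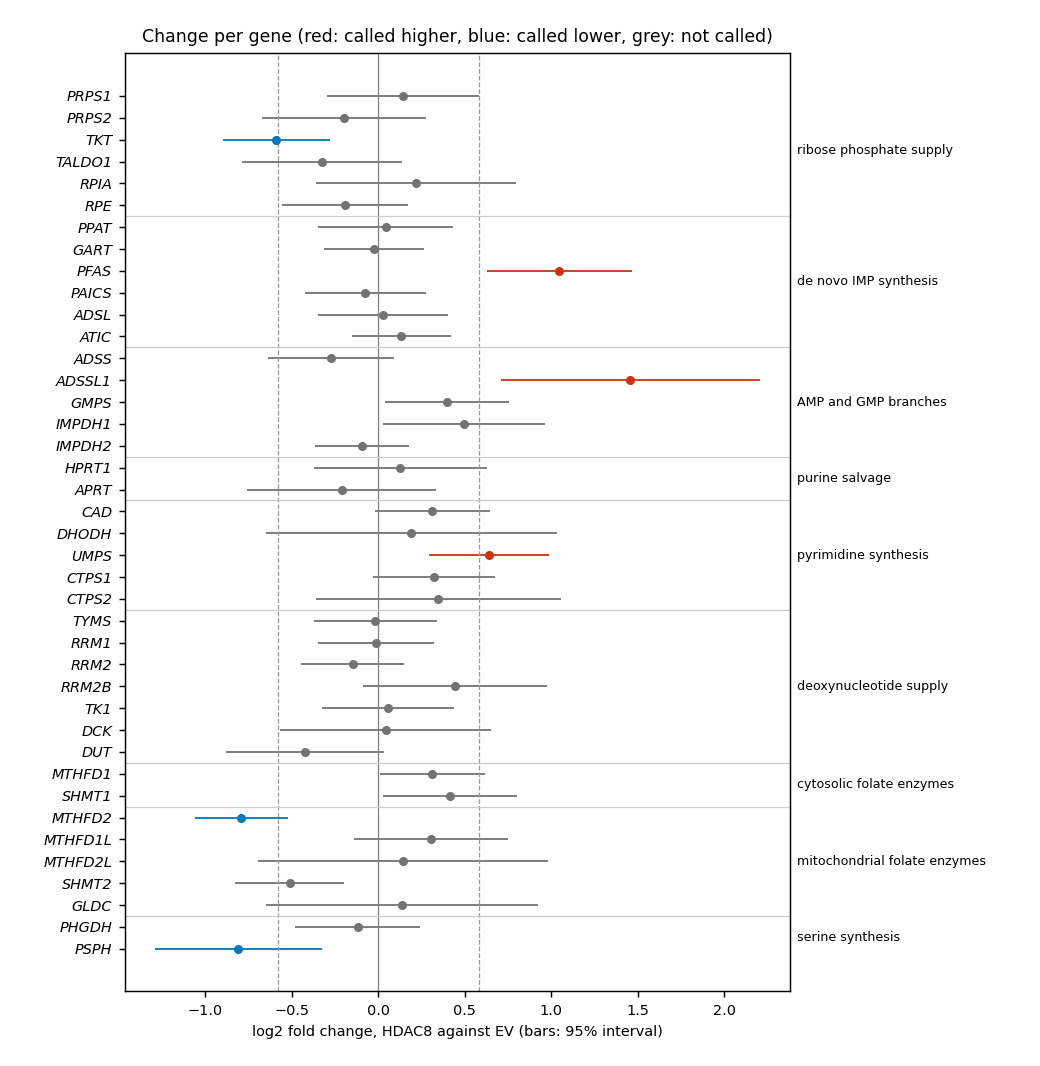
DESeq2 log2 fold change of HDAC8 against EV (x axis, bars are 95% intervals) for the same 40 genes, with genes called higher in red, called lower in blue and not called in grey. Dashed lines mark 0.58 in either direction. PFAS (1.04) and ADSSL1 (1.46) lie beyond the right line, PSPH (-0.81) and MTHFD2 (-0.79) beyond the left line, and most other points lie between the lines.

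The 250 bases before the RefSeq start of PFAS, UMPS and MTHFD2 are printed here, as the starts of called genes in purine synthesis, pyrimidine synthesis and the mitochondrial folate arm. They are on GRCh38.p14, PFAS at chr17:8249039-8249288, UMPS at chr3:124730202-124730451 and MTHFD2 at chr2:74198365-74198614, all on the plus strand, and capitals mark a cAMP response element (TGACGTCA).
PFAS promoter: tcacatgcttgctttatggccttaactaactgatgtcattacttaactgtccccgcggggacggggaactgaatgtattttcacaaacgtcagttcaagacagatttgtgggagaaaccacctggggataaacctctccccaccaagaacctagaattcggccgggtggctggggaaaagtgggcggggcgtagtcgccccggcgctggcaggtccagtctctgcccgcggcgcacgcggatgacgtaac
UMPS promoter: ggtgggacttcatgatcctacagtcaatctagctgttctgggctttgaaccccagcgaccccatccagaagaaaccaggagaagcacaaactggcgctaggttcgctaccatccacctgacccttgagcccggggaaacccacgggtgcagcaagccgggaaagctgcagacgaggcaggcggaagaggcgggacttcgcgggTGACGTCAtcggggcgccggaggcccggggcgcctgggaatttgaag
MTHFD2 promoter: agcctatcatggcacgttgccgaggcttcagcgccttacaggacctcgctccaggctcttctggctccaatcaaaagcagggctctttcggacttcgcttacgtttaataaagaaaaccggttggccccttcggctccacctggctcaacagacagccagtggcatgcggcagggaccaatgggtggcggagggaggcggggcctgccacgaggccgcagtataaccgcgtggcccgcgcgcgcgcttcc

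RefSeq entries from 250 bases before to 50 after the start were found for 36 of the 42 genes, not for ADSL, IMPDH2, RRM2B, SHMT2, ALDH1L2 and PSPH, and 6 motifs chosen after the values were seen were searched on both strands. The E-box CACGTG, the site of MYC and its relatives, was in the windows of PPAT, ATIC, DHODH, DCK, MTHFD1 and MTHFD1L (16.7% of 36, beside 7.43% of 27305 promoters), and none of these 6 genes was called. The cAMP response element TGACGTCA was in UMPS alone, at -47 to -40 from the start, beside 1.98% of all promoters. The antioxidant response element core TGACNNNGC was in RPE, PPAT, RRM1, DCK, MTHFD2 and MTHFD2L (16.7%, beside 13.6%), in MTHFD2 past the start and so outside the bases printed. TGATGNAA, a core of the element that ATF4 binds, was in MTHFD1L alone (3.67% of all promoters), the AP-1 site TGANTCA in the entry of PAICS alone (7.76%), and the E2F sites TTTGGCGC or TTTCGCGC in DCK alone (1.18%). Matches of different motifs overlapped in 1 case. The RefSeq start lay within 300 bases of the start of the GENCODE canonical transcript for 32 of the 36 genes. The exceptions were DUT (334 bases apart), GART (775), MTHFD1L (784) and PAICS (25753), so the window of PAICS is not at the start of its canonical transcript. Of the called genes, PFAS, TKT and ADSSL1 had none of these letters in their windows.

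In ribose phosphate supply, TKT was lower in HDAC8 and the other 5 genes were not called. TKT encodes transketolase, which moves carbon between sugar phosphates and ribose phosphate (GRCh38 chr3:53224712-53256052, minus strand). It had 13314, 17961 and 13272 normalized counts in EV and 10800 (HDAC8 1), 8571 and 10225 in HDAC8. Every HDAC8 library lay under every EV library (log2 fold change -0.59, SE 0.16, DESeq2 adjusted p = 0.0031). TALDO1, the transaldolase of the same pathway, had a log2 fold change of -0.33 (adjusted p = 0.457), with groups that overlapped. PRPS1 and PRPS2, which activate ribose phosphate to PRPP, and RPIA and RPE, which interconvert pentose phosphates, had log2 fold changes from -0.20 to 0.22. Summed over the 6 genes per kilobase of transcript, the role held 7710 in EV and 5794 in HDAC8 (0.751 times) and the groups did not overlap. TKT made up 61.1% of that sum. Without TKT the ratio was 0.908 and the groups overlapped.

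PFAS was the only gene of de novo IMP synthesis to be called. It encodes phosphoribosylformylglycinamidine synthase, which adds an amide nitrogen from glutamine on the way to IMP (chr17:8247618-8270491, plus strand). Counts were 3480, 4859 and 3564 in EV and 11120.3, 5874 and 7562 in HDAC8, highest in HDAC8 1, and the groups did not overlap. The fold was 2.06 (95% interval 1.54 to 2.76, log2 fold change 1.04, SE 0.21, adjusted p = 3.03e-05). Without HDAC8 1 the log2 fold change was 0.76 and the gene was still called.

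The other 5 enzymes of the route had log2 fold changes from -0.07 to 0.13 and none was called. They are PPAT, the committed step, GART and PAICS, which carry out several steps each, ADSL, which splits off fumarate, and ATIC, which closes the ring. PAICS had 8519, 7394 and 8807 normalized counts in EV and 5794, 9477 and 8201 in HDAC8, with HDAC8 1 the lowest of all. Its 95% interval of the fold was 0.746 to 1.21. The summed level of the role per kilobase was 7013 in EV and 7981 in HDAC8 (1.14 times), with no overlap. PFAS accounted for most of that difference: without it, a sum computed after the data had been seen, the levels were 6274 and 6457 (1.03 times) and the groups overlapped, with HDAC8 1 the lowest of all at 5725.4.

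On the branches to AMP and GMP, ADSSL1 was higher and its more abundant relative ADSS was not called. Both encode adenylosuccinate synthase, which starts the branch to AMP, ADSSL1 being known as the muscle form. ADSSL1 had 111.2, 178.4 and 214.8 normalized counts in EV and 560.9, 348.2 and 475.9 in HDAC8, with no overlap (log2 fold change 1.46, SE 0.38, adjusted p = 0.0022). ADSS had 1602, 1665 and 1979 in EV and 1350.2, 1439 and 1547 in HDAC8, again with no overlap but in the other direction (log2 fold change -0.28, SE 0.19, adjusted p = 0.408). Per kilobase, ADSS held 87.7% ± 2.57 of the level of the pair in EV and 68.1% ± 5.88 in HDAC8 (SD, n = 3).

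GMPS, which aminates XMP to GMP, had 4538, 3983 and 4508 normalized counts in EV and 4180.5 (HDAC8 1), 6739 and 6249.5 in HDAC8, so only HDAC8 1 lay within the EV range. It was not called (log2 fold change 0.40, SE 0.18, adjusted p = 0.149). Without HDAC8 1 its log2 fold change was 0.58 with an adjusted p of 5.2e-05, a value just under the fold threshold. IMPDH1, a minor form of the rate-limiting enzyme towards GMP, had a log2 fold change of 0.49 (adjusted p = 0.179) and IMPDH2, the major form, of -0.10 (adjusted p = 0.791). IMPDH1 held 12.6% ± 1.27 of the level of that pair per kilobase in EV and 17.8% ± 3.43 in HDAC8 (SD, n = 3), and the shares did not overlap.

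Neither gene of purine salvage was called, and both overlapped between the groups. HPRT1, which reclaims hypoxanthine and guanine, had 958.4, 938.6 and 1202 normalized counts in EV and 767.9, 1239 and 1379.7 in HDAC8 (log2 fold change 0.13, adjusted p = 0.866). APRT, which reclaims adenine, had 696.3, 820.0 and 553.6 in EV and 702.0, 471.1 and 613.1 in HDAC8 (log2 fold change -0.21, adjusted p = 0.759). The 95% intervals of the fold were 0.772 to 1.55 for HPRT1 and 0.592 to 1.26 for APRT.

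In pyrimidine synthesis all 5 genes had a positive log2 fold change and UMPS was called. UMPS encodes the enzyme that joins orotate to ribose phosphate and makes UMP (chr3:124730433-124749273, plus strand). It had 1223, 1206 and 1117 normalized counts in EV and 1903, 1806 and 1813 in HDAC8, narrow ranges that lay far apart (log2 fold change 0.64, SE 0.18, adjusted p = 0.0043). CAD, the large enzyme of the opening steps, had 7679, 9806 and 7316 in EV and 12366, 8738 and 9656 in HDAC8, where 2 of the HDAC8 libraries lay within the EV range (log2 fold change 0.31, adjusted p = 0.255).

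CTPS1 and CTPS2, which make CTP from UTP, had log2 fold changes of 0.32 and 0.35 (adjusted p = 0.275 and 0.666). DHODH, the mitochondrial step, had the lowest level of the role, 43.6 per kilobase in EV and 49.7 in HDAC8 (log2 fold change 0.19, adjusted p = 0.887). The summed level of the role was 2534 per kilobase in EV and 3207 in HDAC8 (1.27 times), and the groups did not overlap, with HDAC8 1 the highest at 3870.4. Without UMPS the ratio was 1.24, again with no overlap. HDAC8 1 then stood at 3584.2, while HDAC8 2 (2598.6) and HDAC8 3 (2607.8) lay just above EV 2 (2566.2). Without HDAC8 1 the log2 fold change was 0.15 for CAD, 0.12 for CTPS1, 0.06 for DHODH and 0.31 for CTPS2.

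No gene of deoxynucleotide supply was called. RRM2, the regulatory subunit of ribonucleotide reductase in dividing cells, had the highest level of the role, with 8078, 7423 and 8756 normalized counts in EV and 6100.1, 7536 and 8234 in HDAC8 (log2 fold change -0.15, adjusted p = 0.654). RRM2B, an alternative small subunit and the lowest per kilobase, had 983.6, 709.8 and 1051 in EV and 825.2, 1603 and 1304 in HDAC8 (log2 fold change 0.44, adjusted p = 0.343). HDAC8 1 lay within the EV range while both others lay above it. Without HDAC8 1 the log2 fold change of RRM2B was 0.67 (adjusted p = 0.0324), and with scaling by GC content it was 0.62 (adjusted p = 0.0067). RRM2 held 92.9% ± 0.865 of the pair per kilobase in EV and 89.7% ± 2.16 in HDAC8 (SD, n = 3), with no overlap.

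DUT, which clears dUTP, had 1005, 1289.8 and 1026 normalized counts in EV and 979.9, 704.6 and 789.5 in HDAC8, with no overlap (log2 fold change -0.42, adjusted p = 0.263). The largest of its processed copies, DUTP2 and DUTP7, took 4.08% and 2.77% of the level of DUT, so its reads are less certain. DUTP2 had 19.4 normalized counts on average in EV and 59.3 in HDAC8, and DUTP7 had 29.0 and 24.5. TYMS (thymidylate synthase), RRM1 (the catalytic subunit), TK1 and DCK (the thymidine and deoxycytidine kinases) had log2 fold changes from -0.02 to 0.05. Their intervals were widest for DCK, whose fold lay between 0.675 and 1.57. The summed level of the role was 0.964 times that in EV.

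Of the folate enzymes, MTHFD2 fell in HDAC8, SHMT2 passed the p threshold only, and no cytosolic enzyme was called. MTHFD2, the mitochondrial methylenetetrahydrofolate dehydrogenase, had the lowest adjusted p of the 42 genes (chr2:74186172-74217565, plus strand). It had 13984, 12709.9 and 13643 normalized counts in EV and 6783, 8495 and 8018 in HDAC8, and the highest HDAC8 library lay well under the lowest EV library. The log2 fold change was -0.79 (SE 0.14, adjusted p = 3.3e-07), and it ran from -0.86 to -0.69 over the alternatives.

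SHMT2, which takes a carbon from serine in mitochondria, had 8016, 10199 and 7909.6 normalized counts in EV and 6903, 5189 and 6206 in HDAC8, with no overlap. Its log2 fold change of -0.51 (SE 0.16, adjusted p = 0.0156) stayed short of the fold threshold, and its 95% interval of the fold was 0.563 to 0.872. The adjusted p was above 0.05 without EV 2 (0.141), HDAC8 2 (0.0966) or HDAC8 3 (0.0743) and under the replicate block (0.0619). MTHFD2L, a relative of MTHFD2 that is the scarcer form here, had 336.6, 206.4 and 255.1 in EV and 166.7, 430.1 and 284.2 in HDAC8, a spread wider than any difference between groups (log2 fold change 0.14, adjusted p = 0.921). MTHFD1L, the mitochondrial formate-releasing enzyme, and GLDC, which cleaves glycine, had log2 fold changes of 0.30 and 0.14 (adjusted p = 0.478 and 0.919). ALDH1L2, which oxidizes the formyl group, was under 50 normalized counts.

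Among the cytosolic enzymes, MTHFD1, which carries 3 activities of folate interconversion, had 4636, 5374 and 4775 normalized counts in EV and 7084, 5445 and 5827 in HDAC8. SHMT1, the cytosolic partner of SHMT2, had 1662, 1513 and 1183 in EV and 2163, 1839 and 1809.8 in HDAC8. The groups did not overlap for either, yet neither was called (log2 fold change 0.31, adjusted p = 0.188 for MTHFD1 and 0.42, adjusted p = 0.169 for SHMT1). ALDH1L1, the cytosolic formyl oxidase, had 0, 29.0 and 9.9 in EV and 0, 0 and 4.4 in HDAC8, too few for a fold.

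Per kilobase, the mitochondrial role summed to 7588 in EV and 5183 in HDAC8 (0.683 times), and the cytosolic role to 2142 and 2707 (1.26 times), without overlap in either. The cytosolic sum was 3101.9 in HDAC8 1, while HDAC8 2 (2454.4) and HDAC8 3 (2565.1) lay nearer to EV 2 (2312.0). MTHFD1 made up 72.2% of it. Without HDAC8 1 the log2 fold change was 0.19 for MTHFD1 and 0.33 for SHMT1. SHMT2 (4037 per kilobase in EV) and MTHFD2 (3054) held most of the mitochondrial sum. Without SHMT2 the ratio was 0.663 and without MTHFD2 it was 0.754, with no overlap, but each of these sums still held the other gene. MTHFD1L went from 330.5 in EV to 407.9 in HDAC8, MTHFD2L from 113.0 to 124.7, GLDC from 50.8 to 55.8 and ALDH1L2 from 2.8 to 2.6. The fall of the summed level thus lay in SHMT2 and MTHFD2. SHMT1 took 12.5% ± 2.17 of the SHMT1 and SHMT2 level in EV and 21.4% ± 1.67 in HDAC8 (SD, n = 3). MTHFD2 took 96.5% ± 0.695 and 93.6% ± 2.13 of the level it shares with MTHFD2L. The shares of 5 of 9 isozyme pairs did not overlap between the groups, and these shares were not tested. Single genes did not overlap in 24.0% of all genes tested and 35.0% of those with a mean of at least 50 normalized counts. No such share was taken over other pairs of genes. The pairs of ADSSL1 and of MTHFD2 each hold a called gene, and that of SHMT2 a gene past the p threshold only.

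**Figure D3:**
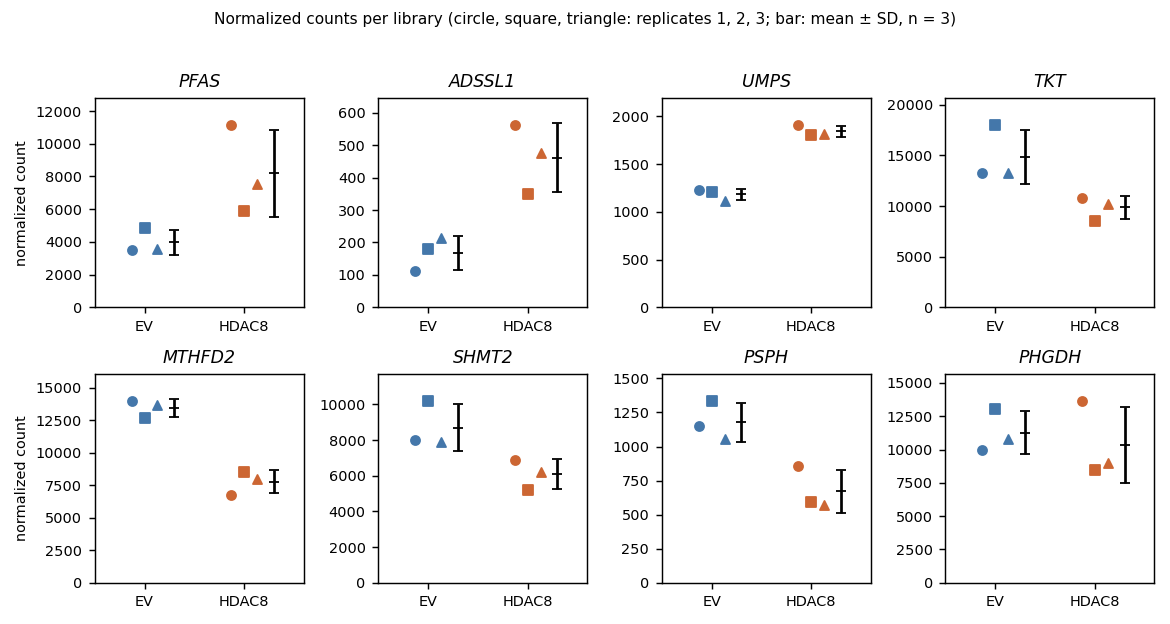
Normalized counts (y axis, from 0, scale differs between panels) in the EV (blue) and HDAC8 (orange) libraries for the 6 called genes, SHMT2 and PHGDH, with the mean and SD of 3 libraries as black bars. PFAS, ADSSL1 and UMPS are higher in every HDAC8 library than in any EV library, TKT, MTHFD2, SHMT2 and PSPH lower, and PHGDH overlaps.

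**Figure D4:**
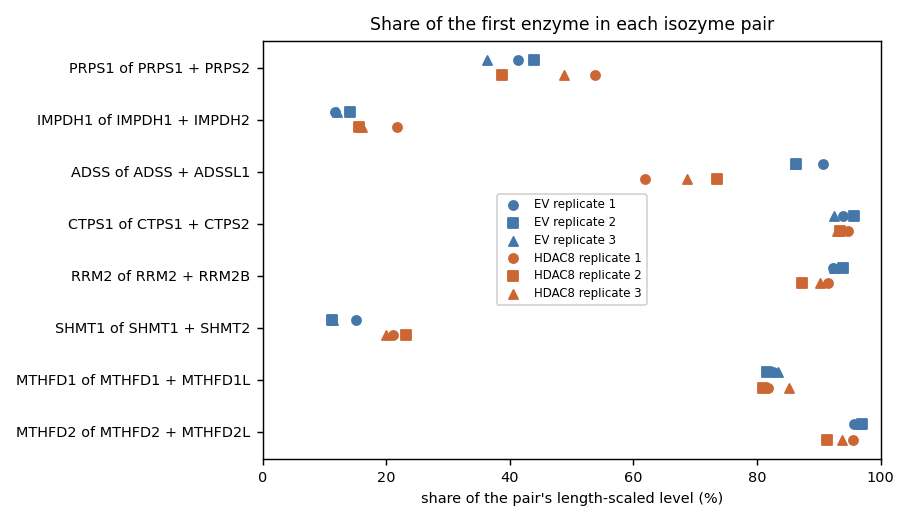
Share of the first enzyme in the length-scaled level of a pair of isozymes (x axis, percent) for 8 pairs (y axis), with EV in blue, HDAC8 in orange and replicates 1, 2 and 3 as circles, squares and triangles. ALDH1L1 and ALDH1L2, with few counts, are not drawn. The groups separate for ADSS, SHMT1, IMPDH1, RRM2 and MTHFD2 and overlap for PRPS1, CTPS1 and MTHFD1.

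Serine synthesis runs from PHGDH through PSAT1 to PSPH. PSPH, the phosphatase that releases serine, had 1148, 1335 and 1054 normalized counts in EV and 855.1, 590.9 and 570.6 in HDAC8, with no overlap (log2 fold change -0.81, SE 0.25, adjusted p = 0.0112). Leaving out one library at a time, its adjusted p lay above 0.05 for 4 of the 6 libraries, with the same direction each time. PHGDH, the first enzyme and the member with the highest level per kilobase, had 9944, 13039.6 and 10823 in EV and 13651, 8469.7 and 8984 in HDAC8, and HDAC8 1 was the highest of all (log2 fold change -0.12, adjusted p = 0.807). Without HDAC8 1 the log2 fold change of PHGDH was -0.37 (adjusted p = 0.0234), under the fold threshold. PSAT1, the aminotransferase between them and not one of the 42, had 5233, 4598 and 4719 in EV and 1838, 2249 and 2299.9 in HDAC8 (log2 fold change -1.19, SE 0.16, adjusted p = 7.77e-12).

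The reactions next to the 42 genes were counted on 8 lists that hold 164 genes, 136 of them with an adjusted p. Of these 9 rose and 17 fell (19.1%), beside 11.0% of all genes and 14.0% of those with a mean of at least 50 normalized counts, and without EV 1 only 5 rose. On the pentose phosphate list 3 of 9 genes fell and 2 rose. PGD, which yields ribulose phosphate, had 7079, 8293 and 7809 normalized counts in EV and 6199, 4566 and 4482 in HDAC8 (log2 fold change -0.60, adjusted p = 0.0031), and DERA, the deoxyribose phosphate aldolase, fell as well (-0.82), whereas H6PD, which acts in the endoplasmic reticulum, and SHPK, sedoheptulokinase, rose by 0.70 each. On the list of serine and glycine supply, PSAT1 and SLC6A9, a glycine carrier, fell and 9 of 11 genes were not called. On the folate and methionine list, CTH (-1.62) and CBS (-0.95), the enzymes that turn homocysteine to cysteine, fell and GGH, which trims folate polyglutamates, rose (0.63), with 21 of 24 not called.

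Nucleotide breakdown, kinases and cyclic nucleotide enzymes held further calls in both directions. Of the purine salvage and breakdown list 4 of 22 genes were called (18.2%), and of its pyrimidine counterpart 3 of 19 (15.8%). Kinases had 3 of 16 (18.8%) and cyclic nucleotide enzymes 6 of 29 (20.7%). Over all genes the share was 11.0%, and 14.0% over those with a mean of at least 50 normalized counts. NT5E, the cell surface nucleotidase that makes adenosine from AMP, had 803.2, 684.6 and 631.5 normalized counts in EV and 4237, 5979 and 6436 in HDAC8 (log2 fold change 2.97, SE 0.19, adjusted p = 1.24e-50). NT5C3A, a pyrimidine nucleotidase, fell (-1.09), and GMPR2 (0.79) and AMPD2 (0.73), which convert GMP and AMP back to IMP, rose. SAMHD1, which breaks down deoxynucleoside triphosphates, fell from 1317 to 752.6 normalized counts on average (-0.81), as did DCTD, the dCMP deaminase (-0.69), and NUDT5, an ADP-sugar hydrolase (-0.60). Of the kinases, AK4 of the mitochondrial matrix rose (1.18) and NME4 (-0.99) and NME2 (-0.59), nucleoside diphosphate kinases, fell. The cyclic nucleotide list had 2 genes higher (GUCY1A2, 1.48, and ADCY7, 1.27) and 4 lower (PDE3A, -2.47, PDE3B, -1.79, ADCY2, -1.74, and PDE4D, -0.64), and no transporter of nucleosides was called.

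Of the 16 genes tested on the list of regulators, 6 were called (37.5%). The share was 11.0% of all genes and 14.0% of those with a mean of at least 50 normalized counts. The list also holds TRIB3 and DDIT3, known targets of ATF4, so its share is not one of regulators alone. ATF4, the factor of the amino acid response that is known to drive genes of serine synthesis and mitochondrial folate enzymes, had 19225, 21451 and 21041 normalized counts in EV and 13088, 12296 and 11832 in HDAC8 (log2 fold change -0.73, SE 0.12, adjusted p = 1.27e-07). TRIB3 (-1.77) and DDIT3 (-0.94) fell too, and SREBF1 (0.68) and E2F2 (0.65) rose. CHAC1, also on the list, had few counts (13.2 on average in EV and 16.3 in HDAC8) and was not called (0.30). MYC, a known inducer of nucleotide synthesis genes, had a log2 fold change of -0.01 (adjusted p = 0.987) and overlapped. Of 18 proliferation markers, 4 were called (22.2%). These were MCM2, MCM4, MCM5 and MCM7, parts of the replicative helicase, which rose (0.73 to 1.03). MKI67, with 37294 normalized counts on average in EV and 25558 in HDAC8, passed the p threshold only (log2 fold change -0.55, adjusted p = 0.0015). So did PLK1, a mitotic kinase, which was lower (-0.45, adjusted p = 0.0304), and MCM6 (0.53, adjusted p = 0.0028) and PCNA, the sliding clamp (0.52, adjusted p = 0.0229), which were higher. Whether any of these genes bears on the 42 was not tested.

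**Figure D5:**
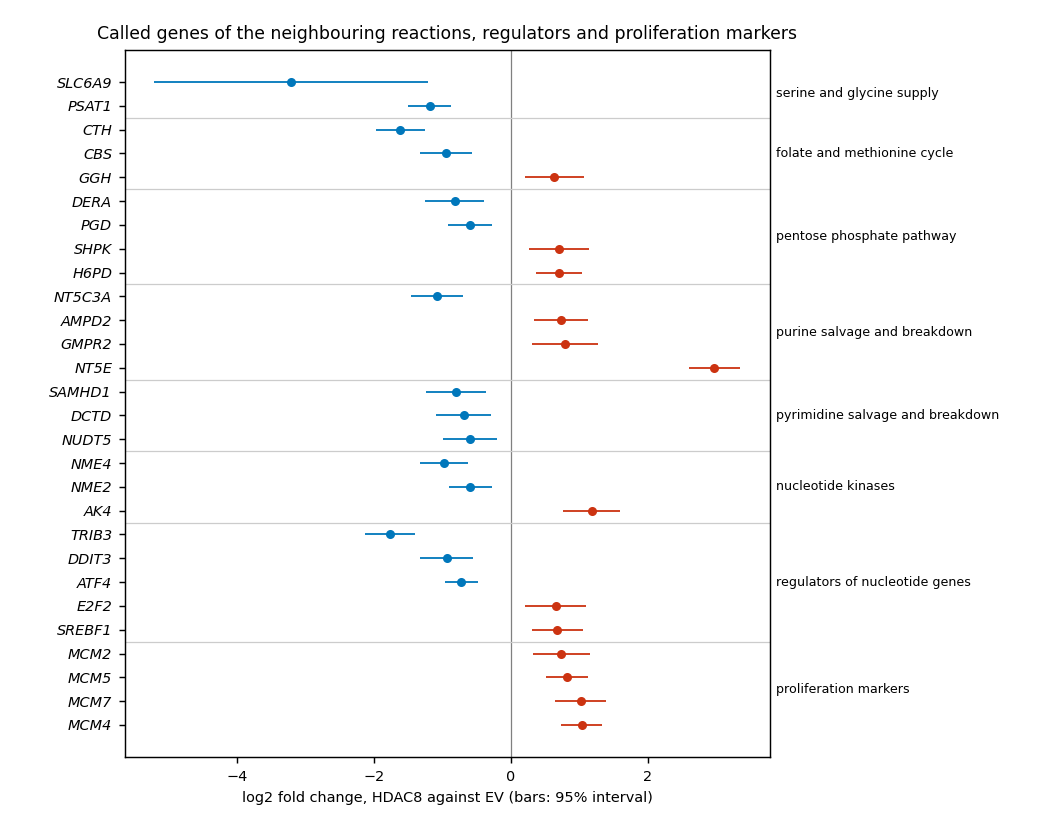
DESeq2 log2 fold change of HDAC8 against EV (x axis, bars are 95% intervals) for 28 called genes of neighbouring reactions, regulators and proliferation markers (y axis, by list), taken from the called genes with a mean of at least 50 normalized counts and groups that do not overlap, with rises in red and falls in blue. NT5E (2.97) has the largest rise drawn and SLC6A9 (-3.22) the largest fall, with the widest interval.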

How the data were processed

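Total RNA of 6 WM164 libraries was sequenced as paired-end reads. The authors used Trimmomatic for trimming, STAR for alignment to the transcriptome and RSEM for quantification, and the deposited values are expected counts, not scaled between libraries. Genome build and annotation are not given in the sources used here, and the labels and the methods of the study name different RNA extraction kits. An expected count shares a read among genes it could come from, so the 16 members with a pseudogene copy by symbol are less certain.

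Expected counts were rounded to whole numbers. The groups were tested by DESeq2 1.42.0 under R 4.3.3 (Wald test, two-sided, default size factors between 0.918 and 1.17) on the 26162 genes whose counts summed to 10 or more, with Benjamini-Hochberg adjustment over the 21021 genes that received an adjusted p. The call thresholds, 0.05 for the adjusted p and 0.58 for the size of the log2 fold change, follow the methods of the study. A fold or an interval comes from that fit. Levels between genes were compared as normalized counts per kilobase of the canonical transcript, and GENCODE release 44 (GRCh38) gave coordinates, length and GC content through the Ensembl identifiers.

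Values per library are given for called members, members past the p threshold only, isozyme partners of called genes, the highest and lowest member per kilobase of the other roles, and called genes of neighbouring lists with a mean of at least 50 normalized counts and groups that do not overlap (at most 6 a list), of which some are not reported here. Values of GMPS, PAICS, CAD, DUT, PHGDH, SHMT1, CHAC1, MKI67, PLK1, MCM6 and PCNA were added after they had been seen. Members and lists were chosen with earlier results of these data known, and the 8 neighbouring lists were grouped after the files had been seen. Alternatives were edgeR 4.0.16, limma-voom 3.58.1, other scalings and filters, a replicate block, a test against the fold minimum, and each library left out. Fits without mitochondrially encoded genes were planned, and scaling within 20 bins of GC content was added after the data had been seen. The fits were tested on simulated data, in which DESeq2 made more false calls than its threshold states and more than edgeR or limma-voom. Libraries of a group differed by more than sampling noise, so none was counted as a repeat.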

Additional observations from a re-analysis of the deposited data

How the results depend on the processing

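The 6 called members kept their direction under every alternative run, and all 6 stayed called under edgeR, limma-voom, TMM or upper quartile factors, both filters, the replicate block and the fit without mitochondrially encoded genes. Factors from total counts lost TKT (log2 fold change -0.54). A test against the fold minimum itself called 292 of all genes higher and 291 lower, 0 members in either direction, and 1 neighbouring gene higher and 5 lower. With one library left out at a time, all genes called ran from 882 to 1223 higher and from 753 (without EV 3) to 1386 lower, members from 2 to 4 higher and from 1 (without EV 2 or HDAC8 2) to 4 lower, and neighbouring genes from 5 (without EV 1) to 8 higher. Same-numbered libraries did not deviate together (correlations -0.002, -0.039 and 0.006), so no sign of pairing by number was seen. With 3 libraries a group this cannot exclude that same-numbered samples were handled together. The replicate block called 3 members higher and 3 lower, 1075 of all genes higher and 1078 lower, and changed no member's call. The median log2 fold change of all genes stayed between -0.07 and 0.04 over the alternatives.

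Direction turned for 16 members, none of them called in the main comparison or under the setting that turned it. With one library left out at a time, the log2 fold changes that took both signs were those of RPIA (-0.058 to 0.383), PPAT (-0.097 to 0.171), GART (-0.099 to 0.042), PAICS (-0.231 to 0.099), ADSL (-0.144 to 0.141), HPRT1 (-0.040 to 0.340), DHODH (-0.032 to 0.502), TYMS (-0.056 to 0.044), RRM1 (-0.096 to 0.101), TK1 (-0.115 to 0.171), DCK (-0.335 to 0.250), MTHFD2L (-0.234 to 0.424), ALDH1L2 (-0.726 to 0.242), GLDC (-0.001 to 0.207) and PHGDH (-0.370 to 0.010). Scaling by GC content turned RPE (0.027), GART (0.005), PAICS (0.024), RRM1 (0.048), TK1 (-0.086) and ALDH1L2 (0.115). Upper quartile factors turned PPAT (-0.025), ADSL (-0.020) and DCK (-0.039), total count factors GART (0.013), TYMS (0.027) and RRM1 (0.025), limma-voom DCK (-0.038) and the replicate block DCK (-0.025). The cause was not tested. With 3 libraries a group, members with at least 1000 normalized counts, called or not, had a median standard error of 0.183 on the log2 scale. Changes as large as those of GMPS (0.40), SHMT1 (0.42) and IMPDH1 (0.49) did not pass the p threshold. Without HDAC8 1 these changes were 0.58, 0.33 and 0.22, and only that of GMPS then passed it. The called member of a role was also left out of its summed level, a step added after the data had been seen. Sums did not overlap in 6 of the 9 roles, and no share over sums of other genes was taken beside this. Of these 6 roles, ribose phosphate supply and IMP synthesis then overlapped. Pyrimidine synthesis and the mitochondrial folate enzymes stayed apart. Deoxynucleotide supply and the cytosolic folate enzymes held no called member, so their sums could not change.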
